A study of Mus musculus with 8 samples.

Results

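Genes of the smooth muscle contractile apparatus and of the actin cytoskeleton linked to serum response factor (SRF) were compared between genotypes in subcutaneous fat of the groin (inguinal white adipose tissue) of mice lacking the lysophosphatidic acid receptor LPA4. The 38 members were chosen by gene symbol, and all 38 were represented among the 18194 genes of the arrays. They were divided into 17 smooth muscle and muscle-enriched genes and 21 broadly expressed actin cytoskeleton genes. The 17 are called smooth muscle genes below, although they include Hspb7, which is known from heart and skeletal muscle. The LPA4-KO group (KO) held 4 male C57BL/6 mice deficient for Lpar4 (Lpar4 -/Y), aged 12 weeks, and the wild-type group (WT) held 4 male littermates of the same strain and age. No treatment is named in the labels, both groups ate the same standard chow, and the deletion is described without a promoter or Cre. Each mouse gave 1 array made from 100 ng of total RNA of the whole tissue. In such bulk samples fewer cells of a type and less RNA per cell cannot be told apart.

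Smooth muscle shortens when myosin, switched on by phosphorylation of its regulatory light chain, pulls on actin filaments that tropomyosin, calponin and caldesmon line. Many of the genes concerned are switched on by SRF, which binds CArG boxes in their promoters together with myocardin or the myocardin-related factors MRTF-A and MRTF-B. The MRTFs are held back by monomeric actin, so the building of filaments sets them free. In fat, these genes are known from vessel walls, from pericytes and from progenitor cells that take up a contractile state.

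Promoter sequence was available from RefSeq (GRCm38.p6, 250 bases before to 50 bases after the gene start) for 34 of the 38 members, and Tagln, Actb, Myh11 and Actg2 had no entry. The CArG box, a run of A or T bases between CC and GG, was present in the windows of 6 of these 34 members, and in 1.81% of the windows of all 27025 gene symbols. A CArG-like box, with 1 inner base other than A or T, was found in 3 of 34 members and in 9.69% of all. The TEAD motif CATTCC, read on both strands, was found in 13 of 34 members and in 16.6% of all. The CArG pattern reads the same on both strands, and no TEAD motif overlapped a CArG or CArG-like box in the windows printed here. The windows of 5 members are shown because they carry such boxes and because the members differ in direction: Acta2, Cnn2 and Myl9 had lower means in KO, and Actg1 and Srf had higher means. They lie at chr19:34255324-34255623 (minus strand) for Acta2, chr10:79988350-79988649 (plus strand) for Cnn2, chr2:156775214-156775513 (plus strand) for Myl9, chr11:120348446-120348745 (minus strand) for Actg1 and chr17:46556113-46556412 (minus strand) for Srf. Capitals mark CArG boxes, CArG-like boxes and TEAD motifs.
Acta2: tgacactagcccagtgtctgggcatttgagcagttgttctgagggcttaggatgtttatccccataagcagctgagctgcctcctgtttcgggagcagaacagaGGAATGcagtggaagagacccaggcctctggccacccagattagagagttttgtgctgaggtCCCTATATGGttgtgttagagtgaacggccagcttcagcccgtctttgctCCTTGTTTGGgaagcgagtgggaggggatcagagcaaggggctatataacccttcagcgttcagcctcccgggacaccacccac
Cnn2: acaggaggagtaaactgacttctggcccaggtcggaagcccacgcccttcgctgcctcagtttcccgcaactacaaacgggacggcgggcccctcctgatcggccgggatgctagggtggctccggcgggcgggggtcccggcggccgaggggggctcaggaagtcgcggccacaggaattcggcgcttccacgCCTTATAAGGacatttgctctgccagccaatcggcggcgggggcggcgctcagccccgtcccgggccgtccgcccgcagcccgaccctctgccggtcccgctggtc
Myl9: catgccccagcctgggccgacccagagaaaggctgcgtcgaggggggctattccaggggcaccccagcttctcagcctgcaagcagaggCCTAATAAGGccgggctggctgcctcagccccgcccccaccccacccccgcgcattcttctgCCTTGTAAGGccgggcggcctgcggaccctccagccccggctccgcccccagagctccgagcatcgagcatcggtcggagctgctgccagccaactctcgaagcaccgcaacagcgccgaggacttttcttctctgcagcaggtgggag
Actg1: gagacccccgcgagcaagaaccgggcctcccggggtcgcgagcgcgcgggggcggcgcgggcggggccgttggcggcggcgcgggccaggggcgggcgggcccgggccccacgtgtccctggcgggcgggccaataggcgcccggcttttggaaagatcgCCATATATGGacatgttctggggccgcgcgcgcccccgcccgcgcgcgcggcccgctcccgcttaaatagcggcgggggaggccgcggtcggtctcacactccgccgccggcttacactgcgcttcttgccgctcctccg
Srf: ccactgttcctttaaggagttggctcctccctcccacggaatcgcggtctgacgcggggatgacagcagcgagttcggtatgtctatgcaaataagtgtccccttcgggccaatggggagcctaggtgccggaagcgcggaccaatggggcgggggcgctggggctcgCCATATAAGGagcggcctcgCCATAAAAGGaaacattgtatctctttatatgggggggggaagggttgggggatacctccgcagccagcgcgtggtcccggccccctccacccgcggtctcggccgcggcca
Positions are counted from the gene start, with -1 as the last base before it. Acta2 held 2 CArG-like boxes, CCCTATATGG from -84 and CCTTGTTTGG from -34, and a TEAD motif from -146. Cnn2 held the CArG box CCTTATAAGG from -56, and Myl9 held CCTAATAAGG from -161 beside the CArG-like CCTTGTAAGG from -99. Actg1 held CCATATATGG from -90, and Srf held CCATATAAGG from -82 and CCATAAAAGG from -62. A match in these windows is a description of the letters and not a measured binding site.

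All values below are on the log2 signal scale, with differences taken as KO minus WT, and array medians lay between 6.73 and 6.74. Of the targeted gene Lpar4, one probe set was lower in all 4 KO arrays (5.81 ± 0.07 in KO and 6.93 ± 0.10 in WT, SD, n = 4 each), while the other 2 were higher in every KO array, by 0.71 and 0.53. Their place relative to the deletion was not analysed here. As many as 78.7% of probe sets had a spread (SD) below 0.01 across all 8 arrays and are called near constant, and 5174 of the 18194 genes were not near constant and are called varying. Ribosomal 18S RNA, read by 3 control probe sets, was higher in KO without overlap, by 0.44, 0.22 and 0.28. Among marker lists, the mean of 6 blood endothelium genes spanned 8.72 to 8.94 in KO and 8.90 to 9.10 in WT, and over varying genes 3 of the 6, Pecam1 (-0.61), Cdh5 (-0.25) and Tek (-0.22), passed as lower (limma adjusted p = 0.0396, 0.0424 and 0.0256). The mean of 8 pericyte genes spanned 9.07 to 9.31 in KO and 9.16 to 9.42 in WT, with 0 of 8 passing in limma over all or varying genes and 0 of 8 at an unadjusted p below 0.05. That of 5 macrophage genes spanned 9.91 to 10.2 in KO and 8.88 to 10.3 in WT, a difference of 0.42, and 0 of 5 passed, also unadjusted. The mean of 6 adipocyte genes differed by -0.02. Among them, Adipoq passed over all genes as higher (0.25, limma adjusted p = 0.0486). Cidec also had a higher mean (0.15), whereas Lep (-0.38), Pparg (-0.08) and Lipe (-0.05) had lower means. None of these others passed over all or varying genes, and Fabp4 was near constant. The fibroblast and progenitor mean differed by 0.11, the lymphocyte mean by 0.18 and the skeletal muscle mean by 0.08, with 0 of their genes passing in limma and 1, a lymphocyte gene, at an unadjusted p below 0.05. That gene, Cd3e, was near constant (a difference of 0.00042), and of the 4 lymphocyte genes measured only Cd3g varied (0.72). The 3′ minus 5′ signal of the Actb controls, a measure of RNA quality, spanned 1.11 to 1.33 in KO and 1.08 to 1.25 in WT. The part of these shifts in the results was not tested.

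Contractile and actin genes were mostly lower in KO fat. Acta2, Hspb7, Synpo2, Tpm4 and Cnn2 fell, by between 1.43-fold and 2.82-fold, and no member passed as higher over all genes. These 5 of 38 members passed limma over all genes (two-sided, Benjamini-Hochberg adjusted p below 0.05). They were 3 of the 17 smooth muscle genes (Acta2 and the muscle-enriched Synpo2 and Hspb7) and 2 of the 21 ubiquitous genes. Of all 18194 genes, 1.64% passed in that direction and 4.03% in either. The median difference was -0.27 over the smooth muscle genes, -0.17 over the ubiquitous genes and 2.86e-05 over all genes. As 13020 of the 18194 genes were near constant, the median over all genes had to lie near 0. Over varying genes alone the medians were -0.36, -0.19 and 0.014 in the same order. With the replicate number as a block, 0 members and 0 of 18194 genes passed limma, although 25 members and 3703 genes had an unadjusted p below 0.05. Leaving out 1 array at a time left 2 to 4 members, and Acta2 and Cnn2 passed in each of these 8 fits.

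The deposited values of 31 members varied between arrays, 13 of the smooth muscle genes and 18 of the ubiquitous genes. The other 7 were near constant, and their genotype difference was at most 0.000235. They were Actg2, the enteric smooth muscle actin, Cnn1, the smooth muscle calponin, Lmod1, a leiomodin that nucleates actin, Itga8, an integrin alpha chain, and Zyx, Fhl2 and Tln1, which sit at focal adhesions. Cnn1 read 6.75 in all 8 arrays. Even Fabp4, an abundant adipocyte gene, read 13.49 in every array, and how such values were made is not known here. A near-constant value therefore does not show that a gene did not change. All 13 varying smooth muscle genes had a lower mean in KO, as did 14 of 18 varying ubiquitous genes, against 47.7% of all varying genes. In 15 of the 31 the KO and WT arrays were fully separate, always with KO lower, against 15.0% of varying genes with KO lower and 18.2% with KO higher. In 24 of the 31 the KO array was lower in all 4 same-numbered comparisons, against 25.0% of varying genes.

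In limma over varying genes alone, 15 members passed, 14 lower and 1 higher, where 27.1% of varying genes passed, 12.2% as lower and 14.9% as higher. With the replicate block added, 18 passed as lower and 2 as higher, against 9.24% and 10.3% of varying genes, and 12 were lower in both of these fits. The spread that makes a gene varying includes its genotype difference, so these shares describe the members and are no further test. With 1 array left out at a time, Acta2, Hspb7, Synpo2, Tpm4, Cnn2 and Csrp1 passed over varying genes in all 8 fits. Flna and Hspb1 passed in 6, Mylk in 5, Actn1 and Cnn3 in 3, Actg1, Actn4 and Tagln in 2, and Cald1 in 1.

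**Figure D1:**
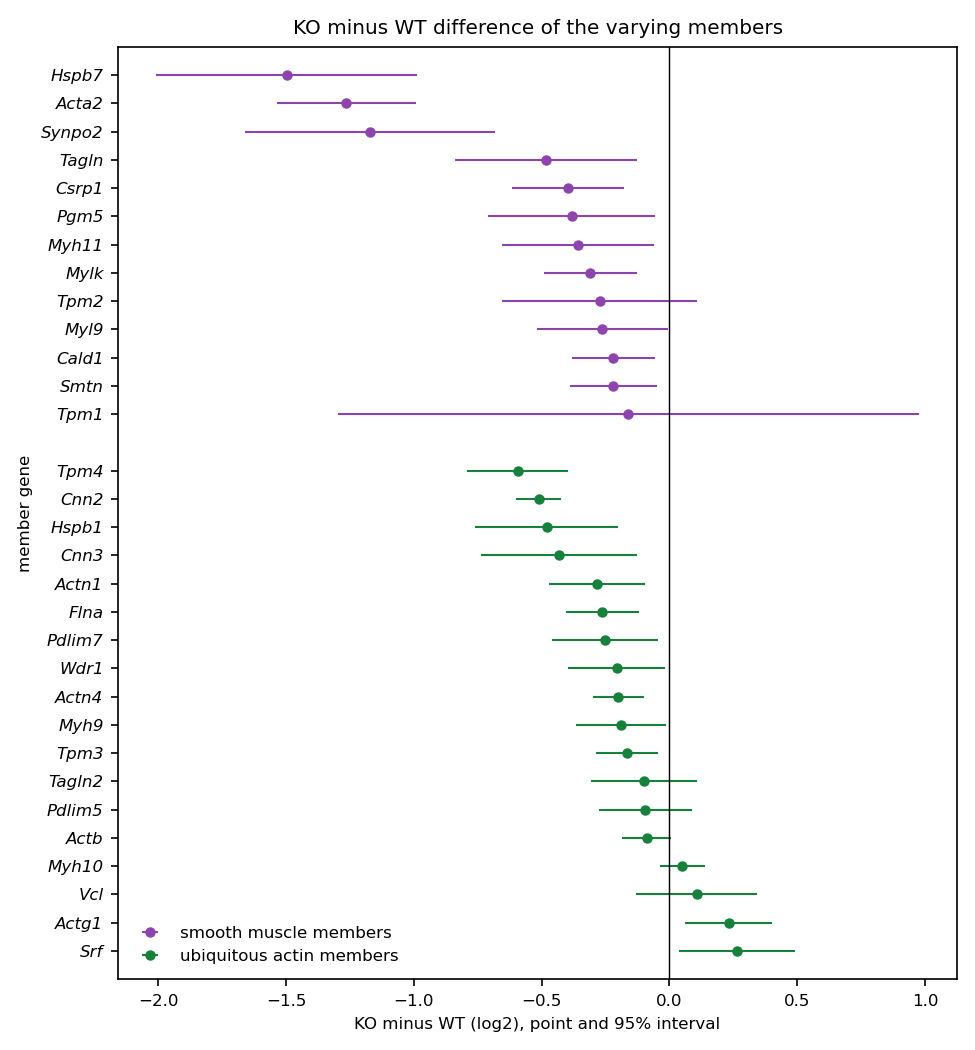
Difference in log2 signal, KO minus WT, for the 31 varying members (points) with 95% intervals from limma over all genes (lines), in rows by gene. All 13 smooth muscle members lie below 0, and 4 of the 18 ubiquitous members, Myh10, Vcl, Actg1 and Srf, lie above it.

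Among the actins, Acta2 fell, the smooth muscle isoform Actg2 was near constant, and the cytoplasmic isoforms did not pass over all genes. Acta2, smooth muscle alpha actin, had 10.76, 11.09, 11.20 and 10.85 in KO 1 to 4, against 12.28, 12.11, 12.22 and 12.35 in WT 1 to 4. Every KO array lay below every WT array. The difference was -1.26 ± 0.11 (SE, limma adjusted p = 0.0134 over all genes), or 2.40-fold lower in KO. Numbers 1 and 2 alone gave -1.27, and numbers 3 and 4 gave -1.26. With the replicate block the adjusted p was 0.0975 over all genes and 0.0201 over varying genes. The suffix of this probe set marks probes shared with other transcripts. A separate and much dimmer Acta2 probe set averaged 6.25 ± 0.11 in KO and 6.78 ± 0.17 in WT (SD, n = 4 each), again without overlap (limma adjusted p = 0.0527 over all probe sets, of which 1.98% passed, and 0.0110 over varying probe sets). The remaining Acta2 probe set was near constant.

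Actb and Actg1 encode the cytoplasmic beta and gamma actins of all cells. Actg1 had 12.64, 12.62, 12.72 and 12.51 in KO 1 to 4, against 12.42, 12.39, 12.51 and 12.24 in WT 1 to 4. KO 4 and WT 3 met at 12.51, and the other KO arrays lay above all WT arrays. The difference of 0.23 ± 0.07 (SE) missed the threshold over all genes (limma adjusted p = 0.121) and passed over varying genes (0.0466), also with the block (0.0330), but not there with the skeletal muscle mean as a covariate (0.0617). The only Actg1 probe set also carries the suffix for probes shared with other transcripts. Actb had 12.97, 13.09, 13.15 and 13.08 in KO 1 to 4, against 13.20, 13.14, 13.16 and 13.15 in WT 1 to 4. Its difference was -0.09 (95% interval -0.18 to 0.01, limma adjusted p = 0.244 over all genes).

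The 5 probe sets of Actb did not move alike. One of them averaged 11.82 ± 0.09 in KO and 12.37 ± 0.04 in WT (SD, n = 4 each), a difference of -0.55 ± 0.05 (SE) (limma, all probe sets, adjusted p = 0.0173). It had 11.72, 11.94, 11.82 and 11.82 in KO 1 to 4, against 12.43, 12.36, 12.36 and 12.35 in WT 1 to 4. The other 4, including the 3 control probe sets along the transcript, differed by -0.09 to -0.13 and overlapped between genotypes. That probe set was singled out after its values were seen, and which part of the transcript it reads is not given in the sources used here.

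**Figure D2:**
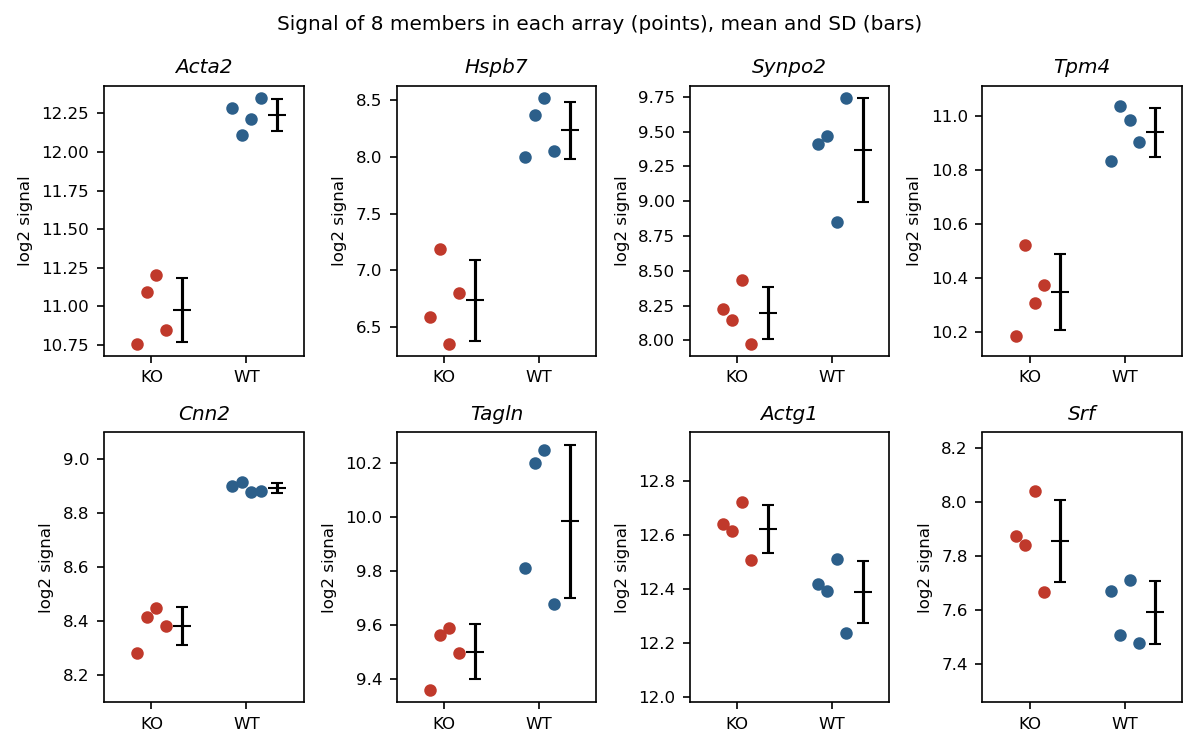
Log2 signal of 8 members in each array (points, KO left and WT right) with the mean and SD of the 4 arrays (bars), each panel on its own scale of at least 1 log2 unit. Acta2, Hspb7, Synpo2, Tpm4, Cnn2 and Tagln have every KO array below all WT arrays, while Actg1 and Srf have higher KO means with overlapping arrays.

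The myosin genes and their regulators differed by less than Acta2. Myh11, the smooth muscle myosin heavy chain, had 7.62, 7.59, 7.91 and 7.49 in KO 1 to 4, against 7.82, 8.14, 8.17 and 7.90 in WT 1 to 4. KO 3 lay above WT 1 and beside WT 4, so the genotypes overlapped. The difference of -0.36 ± 0.12 (SE) had a limma adjusted p of 0.156 over all genes and 0.0524 over varying genes, and passed over varying genes with the replicate block (0.0377). Mylk, the kinase that phosphorylates the regulatory light chain, had 9.45, 9.48, 9.37 and 9.45 in KO 1 to 4, against 9.63, 9.81, 9.93 and 9.62 in WT 1 to 4. All its KO arrays were lower, and the difference of -0.31 ± 0.08 passed over varying genes (limma adjusted p = 0.0245) but not over all genes (0.0778) or over varying genes with the replicate block (0.0575). Myl9, that light chain, differed by -0.26, and smoothelin Smtn, a marker of contractile smooth muscle, by -0.22. Both missed the threshold over varying genes (limma adjusted p = 0.0847 and 0.0547) and passed there with the replicate block (0.0318 and 0.0365). Caldesmon Cald1, an actin-binding inhibitor of myosin, had 10.94, 11.11, 11.07 and 11.02 in KO 1 to 4, against 11.08, 11.34, 11.28 and 11.31 in WT 1 to 4. WT 1 lay among the KO arrays, and the difference of -0.22 passed over varying genes (limma adjusted p = 0.0491), also with the block (0.0398), but not with the skeletal muscle mean as a covariate (0.0622). The probe sets used for Cald1 and Myh9 carry the suffix for probes shared with other transcripts. Over varying probe sets that of Cald1 missed the threshold (limma adjusted p = 0.0514). The non-muscle heavy chains Myh9 and Myh10 differed by -0.19 and 0.05, and neither passed in any of these fits.

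Among the calponins and transgelins, which bind along actin filaments, the most even difference was that of Cnn2, the calponin of non-muscle cells. It had 8.28, 8.41, 8.45 and 8.38 in KO 1 to 4, against 8.90, 8.91, 8.88 and 8.88 in WT 1 to 4. Its WT arrays spanned 8.88 to 8.91, below which all KO arrays lay, and its difference was -0.51 ± 0.04 (SE, limma adjusted p = 0.0125 over all genes), or 1.43-fold lower in KO. Numbers 1 and 2 alone gave -0.56 and numbers 3 and 4 gave -0.46, with adjusted p of 0.0729 over all genes and 0.0201 over varying genes with the replicate block. Tagln, encoding transgelin of smooth muscle, had 9.36, 9.56, 9.59 and 9.49 in KO 1 to 4, against 9.81, 10.20, 10.25 and 9.68 in WT 1 to 4. All KO arrays were lower, but WT 1 and WT 4 lay close to them. The difference of -0.48 ± 0.15 missed the threshold over all genes (limma adjusted p = 0.122) and passed over varying genes (0.0349), also with the block (0.0348). Cnn3, the acidic calponin, had 9.96, 10.25, 10.05 and 10.15 in KO 1 to 4, against 10.40, 10.68, 10.77 and 10.29 in WT 1 to 4. WT 4 lay just above KO 2, the highest KO array. The gene differed by -0.43 ± 0.13 without overlap (limma adjusted p = 0.0327 over varying genes). All of its 5 varying probe sets were lower in KO, by 0.29 to 0.51 in size. Most of them, the one used included, carry a suffix that marks probes that may also bind other transcripts. The varying Cnn3 probe set without that suffix differed by -0.33 and overlapped between genotypes (limma adjusted p = 0.0543 over varying probe sets). Tagln2, near to Tagln in name and a transgelin of many cell types, differed by -0.10 with overlap (limma adjusted p = 0.382 over varying genes).

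Of the 4 tropomyosins, which guard myosin's access to actin, only Tpm4 passed over all genes, and the others also had lower means in KO. Tpm4 had 10.18, 10.52, 10.30 and 10.37 in KO 1 to 4, against 10.83, 11.04, 10.98 and 10.90 in WT 1 to 4. All KO arrays were lower, and KO 2 and WT 1 lay nearest to each other. The difference was -0.59 ± 0.08 (SE, limma adjusted p = 0.0264 over all genes), or 1.51-fold lower, at -0.58 in numbers 1 and 2 and -0.60 in numbers 3 and 4. Over all genes the call was lost with the replicate block (adjusted p = 0.0719) and on leaving out any 1 array other than KO 2 (0.0509 to 0.0845), whereas over varying genes it held with the block (0.0192) and in all 8 such fits. Tpm2 had 9.50, 9.60, 9.61 and 9.12 in KO 1 to 4, against 9.73, 9.98, 9.80 and 9.42 in WT 1 to 4. WT 4 lay among its KO arrays. Tpm3 differed by -0.17 without overlap and Tpm2 by -0.27, and neither passed over varying genes (limma adjusted p = 0.0610 and 0.182). Tpm2 did so with the replicate block (0.0334).

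Hspb7 and Synpo2, both muscle-enriched, were among the 3 members with the largest differences, with Acta2. Hspb7, a small heat shock protein known from heart and skeletal muscle, had 6.59, 7.19, 6.36 and 6.81 in KO 1 to 4, against 8.0, 8.37, 8.51 and 8.05 in WT 1 to 4. Every KO array was lower, and its mean ranked at percentile 50.1 of the probe sets in KO and 82.0 in WT. The difference was -1.50 ± 0.21 (SE, limma adjusted p = 0.0275 over all genes), or 2.82-fold lower, at -1.29 in numbers 1 and 2 and -1.70 in numbers 3 and 4. Its other 2 probe sets were also lower without overlap, by -0.96 and -0.47 as differences. Synpo2, synaptopodin 2, an actin-bundling protein of smooth and striated muscle, had 8.23, 8.15, 8.43 and 7.98 in KO 1 to 4, against 9.41, 9.47, 8.85 and 9.74 in WT 1 to 4. WT 3 lay closest to the KO arrays, and none overlapped. The difference was -1.17 ± 0.20 (SE, limma adjusted p = 0.0385 over all genes), or 2.25-fold lower, at -1.25 in numbers 1 and 2 and -1.09 in numbers 3 and 4. All 4 Synpo2 probe sets were lower without overlap, with differences from -0.46 to -1.17.

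Over all genes the Hspb7 and Synpo2 calls did not withstand most changes of the fit. With the replicate block the limma adjusted p was 0.117 for Hspb7 and 0.171 for Synpo2. Hspb7 passed without KO 2 but not without any other array (0.0552 to 0.0781), and Synpo2 passed without WT 3 but not without any other (0.0716 to 0.0995). Over varying genes both passed without each array in turn, and with the replicate block (0.0224 and 0.0330).

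Hspb1, a small heat shock protein that binds actin in many cell types, had 10.56, 10.82, 10.54 and 10.61 in KO 1 to 4, against 11.01, 11.18, 11.36 and 10.90 in WT 1 to 4. All KO arrays were lower, and the difference of -0.48 ± 0.12 (SE) passed over varying genes (limma adjusted p = 0.0192), also with the block (0.0377), but not over all genes (0.0741). This Hspb1 probe set carries the suffix for probes that may also bind other transcripts. The other Hspb1 probe set, without that suffix, differed by -0.47 without overlap. Csrp1, a LIM protein of smooth muscle that binds alpha-actinin, had 8.0, 8.25, 8.38 and 8.11 in KO 1 to 4, against 8.49, 8.61, 8.68 and 8.54 in WT 1 to 4. Its arrays did not overlap, and the difference of -0.40 ± 0.09 passed in the same fits (limma adjusted p = 0.0180 and 0.0242) and missed over all genes (0.0655). Pgm5, also called aciculin, a protein of muscle adhesion sites, differed by -0.38 with overlap and passed only over varying genes with the replicate block (limma adjusted p = 0.0351). Pdlim7, a PDZ and LIM adaptor of actin filaments, had 7.11, 7.27, 7.27 and 7.36 in KO 1 to 4, against 7.35, 7.49, 7.48 and 7.69 in WT 1 to 4. KO 4 lay just above WT 1, and the difference of -0.25 passed likewise (0.0331). Its relative Pdlim5 (-0.10) passed in none of the fits.

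Filament crosslinkers were slightly lower, and the remaining adhesion members did not move alike. Actn4, a non-muscle alpha-actinin, had 10.64, 10.70, 10.73 and 10.74 in KO 1 to 4, against 10.80, 10.94, 10.96 and 10.91 in WT 1 to 4. Actn1, the other such actinin, had 8.55, 8.58, 8.54 and 8.47 in KO 1 to 4, against 8.67, 8.86, 9.01 and 8.73 in WT 1 to 4. Filamin A, Flna, had 8.30, 8.48, 8.49 and 8.42 in KO 1 to 4, against 8.62, 8.72, 8.79 and 8.62 in WT 1 to 4. None of these 3 crosslinkers overlapped between genotypes, and their differences were -0.20, -0.28 and -0.26 in that order. Over all genes their limma adjusted p values were 0.0536, 0.0974 and 0.0639, and over varying genes 0.0271, 0.0326 and 0.0231. With the replicate block Actn1 was lost there (0.0509). Vinculin Vcl, which ties actin to adhesions, differed by 0.11 (95% interval -0.13 to 0.34), and Wdr1, a cofactor of filament disassembly, by -0.21, without passing.

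Srf itself was not lower. Srf had 7.87, 7.84, 8.04 and 7.67 in KO 1 to 4, against 7.67, 7.51, 7.71 and 7.48 in WT 1 to 4. KO 4 lay between the WT arrays and the other KO arrays lay above them. The difference of 0.26 ± 0.09 (SE, 95% interval 0.04 to 0.49) had a limma adjusted p of 0.164 over all genes and 0.0618 over varying genes, and 0.0342 there with the replicate block. The KO array exceeded the same-numbered WT array in all 4 comparisons. The suffix of the Srf probe set used marks probes shared with other transcripts, and the other Srf probe set was near constant.

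Of 55 other genes of the pathway, 52 were measured and 33 varied, and 2 fell over all genes while 0 rose by limma, against 1.64% and 2.39% of all genes. An unadjusted p below 0.05 was reached by 22 of the 52, and by 4172 of 18194 genes. Mrtfb, the SRF cofactor MRTF-B, had 9.75, 9.56, 9.53 and 9.68 in KO 1 to 4, against 9.99, 9.97 and 9.98 in WT 2 to 4 and a value above these in WT 1. Parva, the focal adhesion adaptor alpha-parvin, had 8.72, 8.84, 8.81 and 8.89 in KO 1 to 4, against 9.10, 9.17, 9.25 and 9.15 in WT 1 to 4. Neither overlapped, and the differences were -0.36 ± 0.05 and -0.35 ± 0.05 (SE, limma adjusted p = 0.0275 and 0.0229 over all genes). Over varying genes both also passed with the replicate block (0.0272 and 0.0246). The cofactors Mrtfa and Myocd were near constant.

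Over varying genes 9 of the 33 pathway genes passed as lower and 2 as higher, against 12.2% and 14.9% of all varying genes. Besides Mrtfb and Parva these were Limk2 (-0.43), a kinase that restrains cofilin, Rhoc (-0.27), the myosin phosphatase targeting subunits Ppp1r12a (-0.18) and Ppp1r12b (-0.43), integrin beta 1 Itgb1 (-0.38), the filament protein Nexn (-0.39) and the adhesion protein Tns1 (-0.52). Those higher were Pfn2 (0.43), a profilin that binds monomeric actin, and Palld (0.19), palladin. Rhoa differed by -0.04 and Rhob by 0.43, and neither passed there (limma adjusted p = 0.499 and 0.0517). With the replicate block 8 were lower and 1 higher, against 9.24% and 10.3% of varying genes, and Rhoc, Ppp1r12a, Tns1 and Palld did not pass (0.0600, 0.0845, 0.0536 and 0.0845). Egr2 (-0.46), an immediate early gene, and Elk3 (-0.27), listed among the SRF cofactors, passed only with the block (0.0319 and 0.0427). None of the 8 immediate early SRF targets measured, such as Egr1 (-0.27) and Fos (-0.21), passed in limma over all genes or over varying genes.

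Skeletal muscle RNA parted the arrays by replicate number and not by genotype, and 1 member followed it. The mean of 20 skeletal muscle markers was 8.37, 8.97, 6.5 and 7.06 in KO 1 to 4 and 8.65, 8.46, 6.55 and 6.95 in WT 1 to 4. Numbers 1 and 2 were higher than numbers 3 and 4 in both genotypes. Tpm1, as read by its brightest probe set, was the one varying member with that order in both genotypes, against 6.15% of varying genes. It had 8.68, 9.39, 7.85 and 7.88 in KO 1 to 4, against 9.20, 9.10, 8.17 and 7.98 in WT 1 to 4. Numbers 1 and 2 exceeded numbers 3 and 4 by 1.17 in KO and 1.08 in WT, against a genotype difference of -0.16 (95% interval -1.30 to 0.98). A second Tpm1 probe set had 8.19, 8.42, 8.47 and 8.45 in KO 1 to 4, against 8.57, 8.80, 8.83 and 8.49 in WT 1 to 4. It lacked the muscle order, and its KO and WT arrays were separate (-0.29, limma adjusted p = 0.0632 over varying probe sets).

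Among varying probe sets that did not represent their gene, 3 had the order too. The dimmest varying Tpm2 probe set had 7.81, 8.81, 5.86 and 6.32 in KO 1 to 4, against 8.38, 8.14, 5.71 and 5.96 in WT 1 to 4, while the 2 brighter varying Tpm2 probe sets differed by 0.15 to 0.25 between numbers 1 and 2 and numbers 3 and 4. A pair of dimmer Pdlim5 probe sets were higher in numbers 1 and 2 by 1.72 and 0.43 in KO and by 1.22 and 0.51 in WT. The brightest Pdlim5 probe set moved by only -0.02 and 0.06.

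The members that fell did not show this order. The gap between numbers 1 and 2 and numbers 3 and 4 in Acta2 was -0.10 in KO and -0.08 in WT, although the skeletal muscle actin Acta1 had 10.79, 11.58, 9.36 and 10.01 in KO 1 to 4, against 11.61, 11.17, 9.70 and 10.55 in WT 1 to 4. For Hspb7 the gap was 0.31 in KO and -0.10 in WT. With the skeletal muscle mean as a covariate over all genes the differences of the 5 members moved by less than 0.01, and Acta2, Hspb7, Cnn2 and Tpm4 passed (limma adjusted p = 0.0314, 0.0490, 0.0275 and 0.0491) while Synpo2 did not (0.0643). In that fit 0.791% of all genes passed as lower. Over varying genes with the covariate 13 members passed, all lower, against 11.3% of varying genes.

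**Figure D3:**
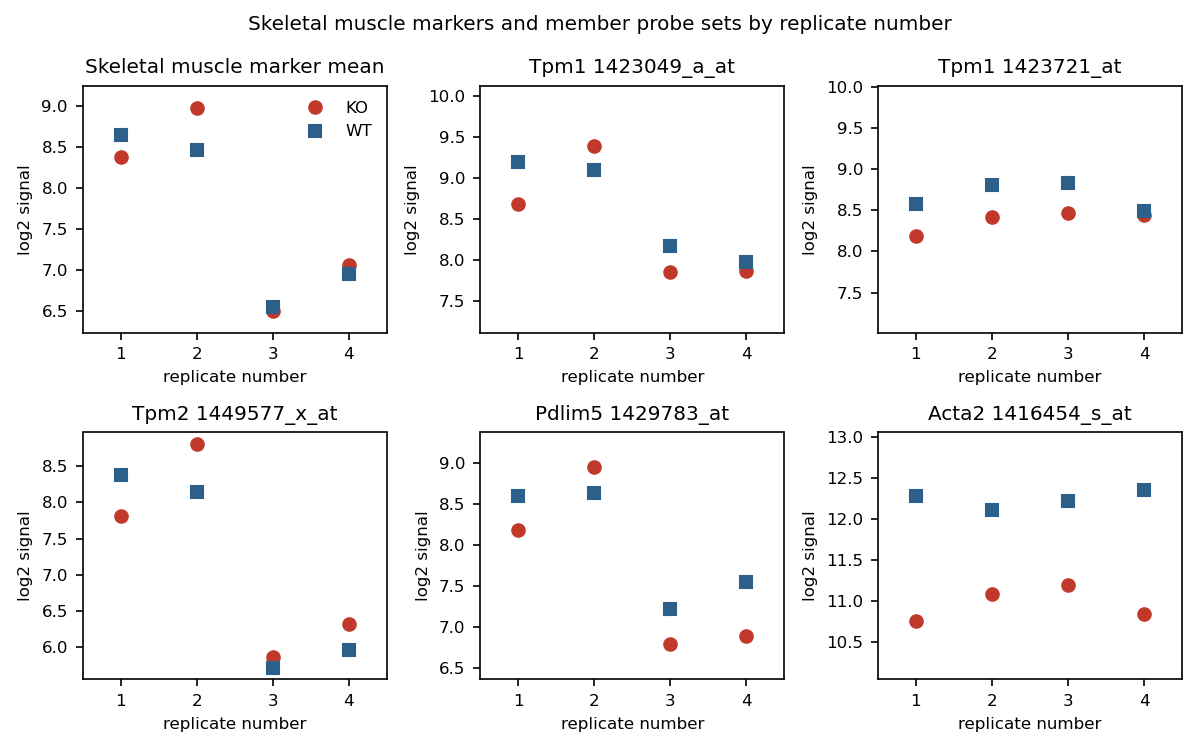
Log2 signal by replicate number in KO (circles) and WT (squares) for the mean of 20 skeletal muscle markers, 4 probe sets of Tpm1, Tpm2 and Pdlim5, and Acta2, each panel on its own scale of at least 3 log2 units. Numbers 1 and 2 lie above numbers 3 and 4 in the markers, the brightest Tpm1 set and the Tpm2 and Pdlim5 sets, but not in the second Tpm1 set, whereas in Acta2 all KO arrays lie below all WT arrays.

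Probe sets of the same member mostly moved the same way. The members had 98 probe sets, of which 63 varied, 58 with a lower and 5 with a higher mean in KO. In 15 of the 16 members with at least 2 varying probe sets, all of them had the same sign. Tpm2 was the exception, through the probe set with the skeletal muscle order (a difference of 0.15).

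**Figure D4:**
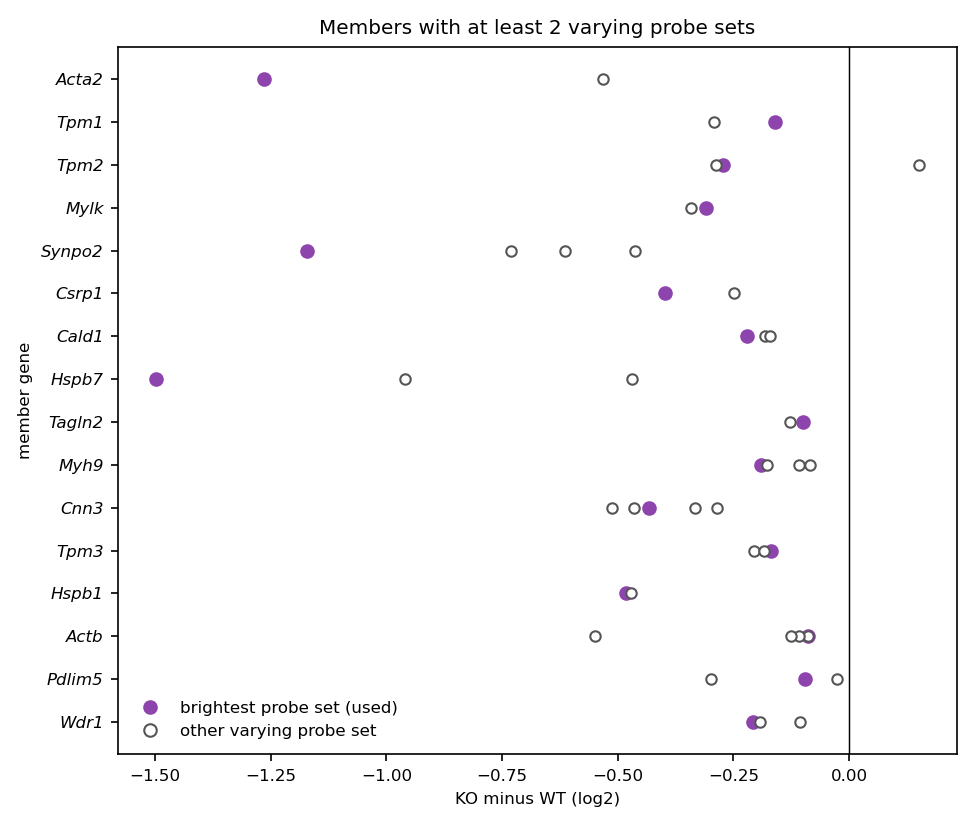
KO minus WT difference in log2 signal of every varying probe set (points) of the 16 members with at least 2, with the brightest probe set, which stands for the gene, filled. The sets of Synpo2, Hspb7 and Cnn3 all lie at -0.29 or lower, and those of Actb lie between -0.09 and -0.13 except one at -0.55.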

How the data were processed

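The authors deposited log2 signals for 45101 probe sets on a mouse 3′ expression array, 1 column per mouse; per the labels, RNA was amplified and labelled with biotin. The submitters' processing notes name R 2.14.0. How background, normalisation and summarisation were handled is not given in the sources used here, and the log2 scale was read from the values (4.93 to 14.3). The platform annotation paired 34958 probe sets with 1 gene symbol, 932 with several and 9211 with none. Each gene was taken from its probe set with the highest mean over the 8 arrays, control probe sets that name a gene included. KO was compared with WT with a linear model per gene and moderated variances (limma 3.58.1, run under R 4.3.3). The two-sided p-values of the 18194 genes were adjusted together by Benjamini-Hochberg, and 0.05 was the threshold. Varying genes are those with an SD of 0.01 or more over the 8 arrays. The test was also run on simulated data, and the outcome is not given here.

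Same-numbered KO and WT arrays deviated together across genes, with correlations of 0.315, 0.486, 0.189 and 0.244, so the numbers meet the rule for pairs (every correlation over 0.1) from the data alone, and blocked values are given where they change a call. Between numbers 3 and 4, arrays of different number were closer: KO 3 and WT 4 (0.364) and KO 4 and WT 3 (0.266). Between numbers 1 and 2 they were less close than same-numbered arrays: KO 2 and WT 1 (0.221) and KO 1 and WT 2 (0.107). The correlations therefore part numbers 1 and 2 from 3 and 4, and they do not tell number 3 from number 4. What a number shares is not stated in the labels, so p-values measure the spread between these arrays. Precision is limited by having 4 arrays a genotype. Alternatives were the block, varying genes, a skeletal muscle covariate, brighter genes, mean probe sets, quantile normalisation, another variance model and leaving out each array. Genes described array by array are members that pass over all or varying genes, members without overlap and a difference of at least 0.3, a fixed set (Actb, Actg1, Srf, Tagln, Myh11, Cnn1), the 4 with the largest gap between numbers 1 and 2 and numbers 3 and 4, and pathway genes that pass. The members, lists and alternatives were chosen with earlier results of these data known.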

Additional observations from a re-analysis of the deposited data

Results flagged for a closer look

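In 2 of 62 groups of 4 arrays checked among the varying members, 1 array stood far from the other 3. Tpm3 was high in WT 2 (10.87), and Vcl was high in KO 1 (10.69). Chance gives about 1 in 20 such groups.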

How the results depend on the processing

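The count of members that passed was 5 over all genes, and it stayed within 1.5 times that with brighter genes, mean probe sets, quantile normalisation, another variance model and the skeletal muscle covariate. With the replicate block over all genes, 0 members, 0 smooth muscle, 0 ubiquitous and 0 pathway genes passed limma. Over varying genes the same counts were 15, 7, 8 and 11. Over varying genes with the replicate block they were 20, 11, 9 and 9, and with the skeletal muscle covariate 13, 6, 7 and 10. Among brighter genes 4 ubiquitous members passed, against 2 over all genes. Leaving out 1 array at a time gave 2 to 4 members, 1 to 2 smooth muscle, 1 to 2 ubiquitous and 0 to 2 pathway genes over all genes, and 6 to 17 members, 4 to 9, 2 to 8 and 3 to 11 over varying genes. The members that passed over varying genes numbered 6, 10, 9 and 12 without KO 1 to 4 in turn, and 17, 7, 11 and 14 without WT 1 to 4. With mean probe sets 3 members followed the skeletal muscle order, against 1. Cnn1, near constant, turned to 0.0029 under quantile normalisation. Tpm1, at -0.16 with all arrays, turned to 0.038 without KO 3, 0.031 without KO 4, 0.036 without WT 1 and 0.0021 without WT 2 in both gene sets, and its lowest value was -0.47 without KO 2. Fewer genes are tested in the varying and brighter sets, and for the other changes the cause was not tested. limma estimated 0.332 prior degrees of freedom over all genes and 2.0 over varying genes. Signal over background was not analysed here.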

Other observations

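Fos and Egr1, immediate early genes that SRF also controls, spread widely within both genotypes. Fos had 9.03, 10.55, 9.77 and 9.49 in KO 1 to 4, against 11.10, 9.49, 9.15 and 9.96 in WT 1 to 4. Egr1 had 9.0, 10.23, 9.04 and 9.20 in KO 1 to 4, against 10.45, 9.24, 9.19 and 9.66 in WT 1 to 4. In both genes KO 2 and WT 1 held the highest value of their genotype. Other listed genes of this kind did otherwise: Egr2 was lower and Mcl1 higher in KO in all 4 same-numbered comparisons, and Egr3 and Fosb were near constant. Desmin Des, the intermediate filament of muscle, followed the skeletal muscle order, with numbers 1 and 2 above numbers 3 and 4 by 0.93 in KO and 0.78 in WT, and it passed over varying genes only with the skeletal muscle covariate (-0.36, limma adjusted p = 0.0414).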
